A study of Coturnix japonica with 54 samples.

Results

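Heat shock and glucocorticoid response genes were followed through a simulated year of day lengths in the hypothalamus of male Japanese quail. The set holds 10 named genes. FKBP5, SGK1, TSC22D3, DDIT4 and PDK4 are known in mammals as glucocorticoid-induced genes, and HSPA8, HSPA5, HSP90AA1, HSP90AB1 and HSPH1 encode heat shock proteins. Of the 10 genes, 9 were listed among the 19916 genes of the deposited table of CPM, the reads of a gene per 1e6 reads of its library, and TSC22D3 was not. A filter on low values asked for 6 or more libraries with a CPM of 10 or higher, and 7 of these genes passed it, of 8268 genes in all. DDIT4 and PDK4 did not pass it.

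The 54 birds formed 9 groups of 6, named by their hours of light per day. The groups 16La, 14La, 12La and 10La, whose letter a was taken to mean autumnal, came first and make up the declining arm. The shortest day, 8L, followed, and 10Lv, 12Lv, 14Lv and 16Lv came last. Their letter v was taken to mean vernal, and they make up the rising arm. All birds started on 16 h of light, each of the 9 steps lasted 2 weeks, and birds were taken at the end of a step, so the arm and the time in the study cannot be told apart. The labels give no age, genotype, drug or batch. All samples are labelled as mediobasal hypothalamus, whose RNA was read as complementary DNA on nanopore flow cells, and a bulk value cannot tell fewer cells of a type from less RNA per cell.

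The CPM table held 251382 to 1895616 reads per library (median 938816), recovered from the steps of its values. Replicates 3 and 6 of 16Lv differed by less than sampling noise and were counted as 1 sample, which left 53 libraries and n = 5 in 16Lv. Each group had 1 shallow library, 9 in all with 251382 to 379260 reads, against 626001 to 1895616 reads in the other 44. All 8 hypothalamus markers were listed, summing to 452 to 1358 CPM after scaling by TMM factors, which adjust for library makeup, beside 23243 to 52530 for 7 neuron markers and 14.3 to 328 for 7 pituitary markers. The second deposited table, of estimated counts per transcript, went against the tissue label. It held 51567 counts of POMC, 36000 of PRL and 12442 of CGA, which encode pituitary hormones or their precursors, and 32 counts of the hypothalamic neuropeptide NPY. The CPM table held 1354 reads of POMC, 39 of PRL, 6849 of CGA and 8387 of NPY. These 4 genes were chosen after their values were seen. Over 940 genes of both tables, the 2 columns of the same bird were the most alike of all columns in 0 of 54 birds. They were the most alike of their group in 12. With a median of 39688 counts per library in the count table, columns of the same bird could fail to match for lack of depth. Given its hormone counts, the count table is described apart, and its values are not treated as a repeat of the CPM table.

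Glucocorticoids, corticosterone in birds, act through a receptor that waits in the cytosol in a complex with HSP90 and other chaperones. Bound to hormone, the receptor moves to the nucleus and switches on genes that include FKBP5, whose protein joins the same HSP90 complex and lowers the receptor's affinity for hormone, a short feedback loop described in mammals. Heat shock proteins fold and refold other proteins, and heat or misfolded protein raises many of them through heat shock factors. HSPA5 is the chaperone of the endoplasmic reticulum, where the unfolded protein response controls it. In the hypothalamus, glucocorticoids also provide negative feedback on the stress axis.

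No tested member passed the threshold in any comparison. Limma, on log2 of TMM-scaled CPM plus 1 with Benjamini-Hochberg adjustment over all 8268 genes, called 0 of 7 members at an adjusted p under 0.05 in each of 18 comparisons, and the lowest adjusted p of a member was 0.621. Of all genes it called 0% to 0.0363% in a comparison, so a count of 0 members does not set the members apart. Of the 126 member tests, 14 had an unadjusted p under 0.05, against 4.41% of the tests of all genes. These 14 rest on 3 genes, FKBP5, HSPH1 and HSP90AA1, in comparisons that share birds, and 9 of them were at 0.05 or above without 1 of the libraries. EdgeR on the recovered reads also called 0, with 16 such tests against 3.68% for all genes. Limma-voom called 0, with 14 against 4.45%, and DESeq2 over 16 comparisons called 0, with 18 against 4.36%. For the difference among the 9 groups, limma called 0 of 7 members and 0.0363% of all genes. FKBP5 and HSPH1 were the 2 of 7 members at an unadjusted p under 0.05 there, against 3.69% of all genes. For both the limma adjusted p was 0.999. Without 12La replicate 2 or 4 FKBP5 was at 0.05 or above there, as was HSPH1 without 16Lv replicate 1 or 2. No member had groups without overlap in any of the 14 pairs compared. The share of all genes without overlap was 0.145% higher and 0.0605% lower in 8L against 16La, and 0.206% higher and 0.266% lower in 16Lv against 8L. It was 0.0726% higher and 0.0605% lower in 14La against 16La, and 0.0242% to 0.327% in 1 direction over all pairs.

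**Figure D1:**
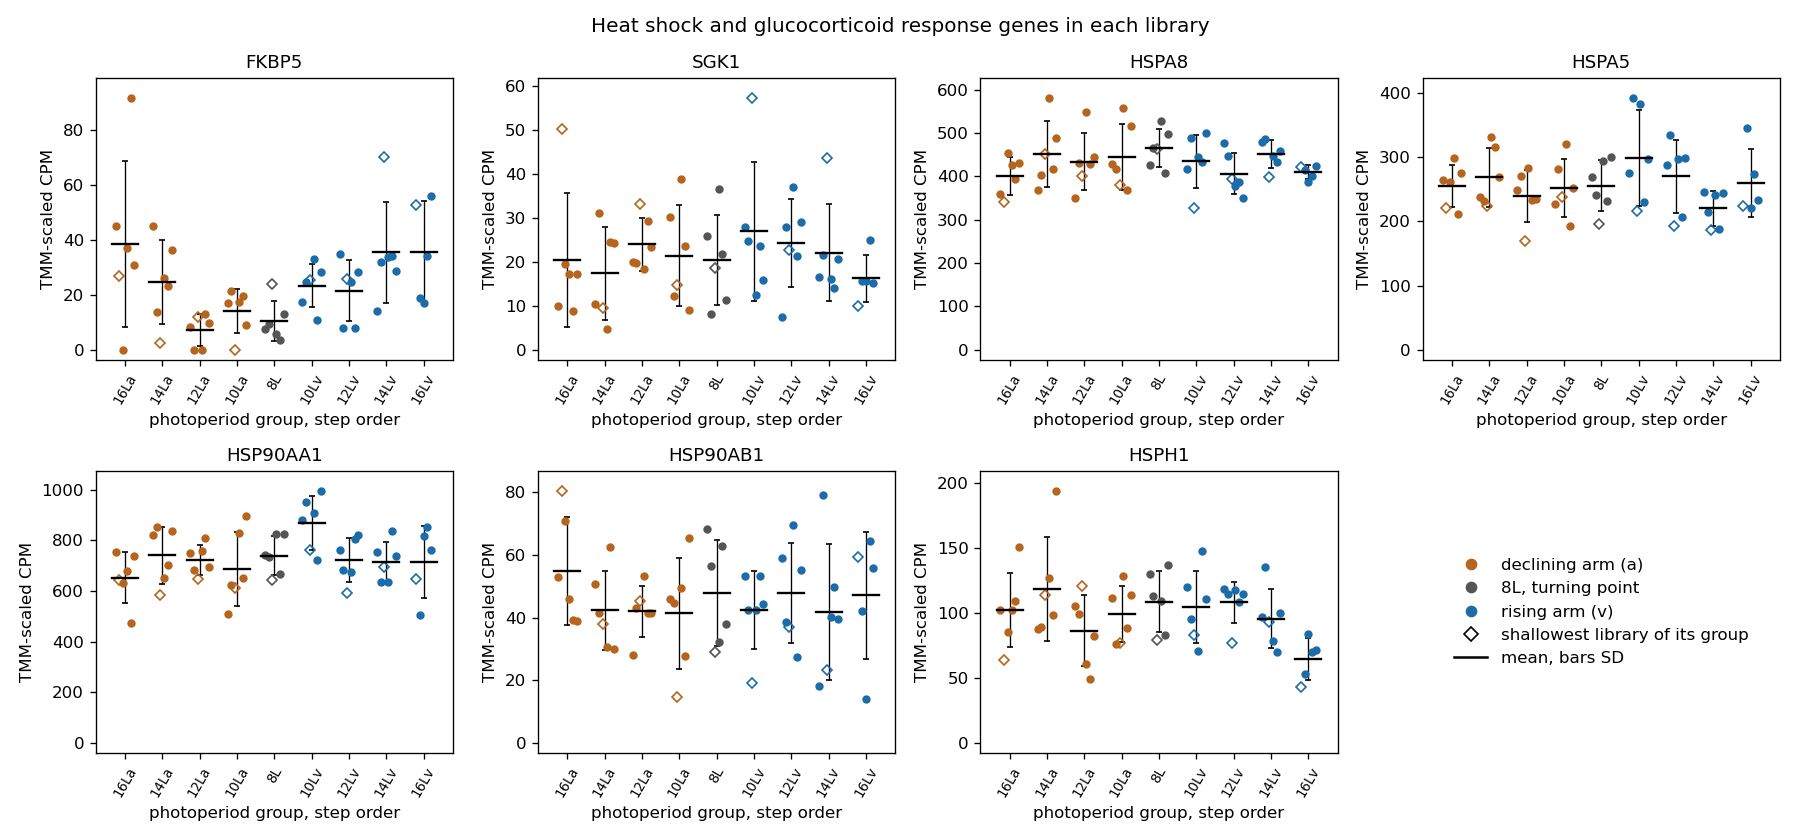
TMM-scaled CPM (vertical axes, from 0) of the 7 tested members in each library of the 9 photoperiod groups in step order (horizontal axes). Points are libraries, open diamonds the shallowest library of each group, lines means and bars SD (n = 6, 5 in 16Lv). The FKBP5 means are lowest in 12La and 8L and highest in 16La, while HSPA8 has the smallest ratio of highest to lowest group mean, 1.16.

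FKBP5 had the largest ratio of highest to lowest group mean among the tested members. Its lowest, median and highest TMM-scaled CPM were 0, 33.9 and 91.4 in 16La, 2.38, 24.6 and 45.1 in 14La, and 0, 8.85 and 12.8 in 12La. They were 0, 17.2 and 21.4 in 10La, 3.50, 8.32 and 23.8 in 8L, and 10.9, 25.1 and 32.9 in 10Lv. They were 7.71, 25.1 and 34.9 in 12Lv, 14.1, 32.8 and 70.0 in 14Lv, and 17.1, 33.9 and 55.9 in 16Lv. The birds of 12La and 8L were low and those of 14Lv and 16Lv high, and every pair of groups compared overlapped. Group means ran from 7.10 in 12La to 38.5 in 16La, a ratio of 5.42. No neighbours in the order of the 9 group means differed by more than the larger of their SDs.

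The rising and declining arms were compared at 10, 12 and 14 h of light, where birds had the same day length but reached it from opposite directions. FKBP5 averaged 26.7 ± 14.0 TMM-scaled CPM in the rising arm and 15.2 ± 12.3 in the declining arm (SD, n = 18 each). Of the 18 rising birds, 15 lay above the declining median of 13.3. The mean log2 difference of rising minus declining was 1.26 (SE 0.44, 95% confidence interval 0.38 to 2.15), with an unadjusted p of 0.00617 and a limma adjusted p of 0.865. Limma called 0 of 7 members and 0.0121% of all genes in that comparison. At an unadjusted p under 0.05 it held 1 of 7 members, FKBP5, against 4.86% of all genes.

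By day length, the FKBP5 log2 difference of rising minus declining was 1.10 (SE 0.76) at 10 h, 1.94 (SE 0.76) at 12 h and 0.75 (SE 0.76) at 14 h. Without 10La replicate 3 it was 0.42 at 10 h, and without 14La replicate 3 it was 0.24 at 14 h, and both are the shallow libraries of their groups. At 12 h the range was 7.71 to 34.9 TMM-scaled CPM in 12Lv and 0 to 12.8 in 12La, and the limma adjusted p was 0.961. Limma called 0 of 7 members and 0% of all genes at 12 h, and FKBP5 was the 1 member at an unadjusted p under 0.05, against 4.87% of all genes. Without 12La replicate 2 or 4, both at 0, the difference was 1.47 and no member was at an unadjusted p under 0.05. At 14 h, where limma called 0 of 7 members and 0% of all genes, no member was at an unadjusted p under 0.05, against 3.6% of all genes. The test of whether the arm difference of FKBP5 varied with day length gave a limma adjusted p of 0.999, with 0 of 7 members and 0.0121% of all genes called. No member was at an unadjusted p under 0.05 in that test, against 3.96% of all genes. Summed oligodendrocyte markers (7 of 9 listed, none at 0) had 3826 to 8564 TMM-scaled CPM in the rising arm (median 6654) and 5659 to 10014 in the declining arm (median 7370). Summed pituitary markers (7 of 7 listed) had 18.1 to 283 TMM-scaled CPM in the rising arm (median 202) and 14.3 to 186 in the declining arm (median 127). Among these 7, CGA held 6849 reads over all libraries and PRL 39. The sum thus rests mostly on CGA and does not weigh the 7 genes alike. The part of both marker lists in the FKBP5 values was not tested.

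On hours of light over all 9 groups, the slope of FKBP5 was 0.18 log2 units per hour (SE 0.07, unadjusted p = 0.011, limma adjusted p = 0.941). Limma called 0 of 7 members and 0% of all genes for the slope, while 2 of 7 members, FKBP5 and HSPH1, against 5.02% of all genes were at an unadjusted p under 0.05. The HSPH1 slope went the other way, at -0.04 log2 units per hour (SE 0.02, limma unadjusted p = 0.0455, adjusted p = 0.941). Leaving out any 1 of 19 libraries took that unadjusted p to 0.05 or above. With DESeq2 on the recovered reads the FKBP5 slope had an adjusted p of 0.0503, the lowest of any member over 15 alternatives, whose highest for this slope was 0.969. The log2 change of FKBP5 was 1.75 (SE 0.80, limma adjusted p = 0.894) for 16Lv minus 8L and -1.22 (SE 0.76, adjusted p = 0.999) for 8L minus 16La. Both share the 8L birds. For 12La minus 14La it was -1.94 (SE 0.76), with a limma adjusted p of 1.00, and -1.47 without 12La replicate 2 or 4.

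FKBP5 was listed at 0 in 4 libraries, replicate 3 of 16La, replicates 2 and 4 of 12La and replicate 3 of 10La. The 16La library at 0 held 846938 reads, while the other libraries of that group gave 26.8 to 91.4 TMM-scaled CPM. Without it the log2 change of 8L minus 16La was -2.13 in place of -1.22, and the smallest limma adjusted p of that change over all left-out libraries was 0.994. In 12La the libraries at 0 held 924028 and 705863 reads.

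**Figure D2:**
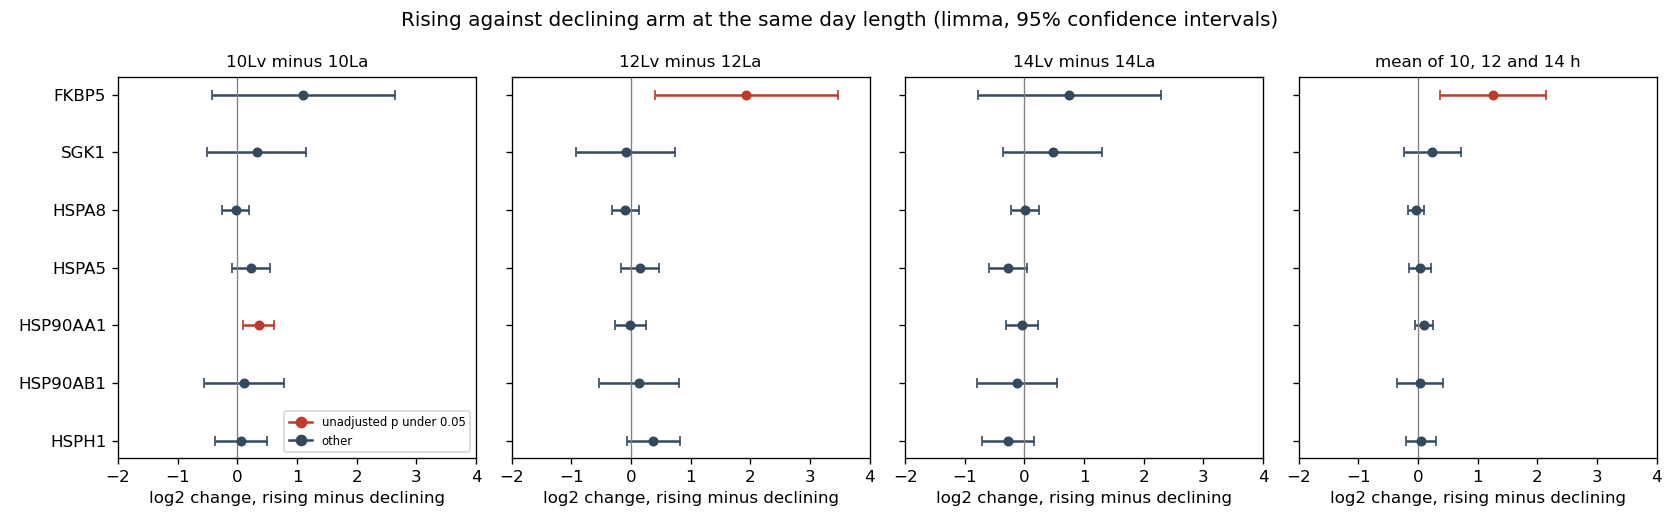
Log2 change of rising minus declining arm (horizontal axes) for the 7 tested members (rows) at 10, 12 and 14 h of light and for their mean, from limma with 95% confidence intervals. Red marks an unadjusted p under 0.05, held by FKBP5 at 12 h and in the mean and by HSP90AA1 at 10 h, and the intervals of FKBP5 are the widest in each panel.

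SGK1, a kinase that regulates ion channels and transporters and is induced by glucocorticoids in many mammalian tissues, had overlapping groups throughout the cycle. Its group medians ran from 15.5 TMM-scaled CPM in 16Lv to 25.3 in 12Lv, over libraries of 4.60 to 57.3. It averaged 24.5 ± 12.0 TMM-scaled CPM in the rising arm and 20.9 ± 9.51 in the declining arm (SD, n = 18 each). The arms overlapped, and 9 of 18 rising birds lay above the declining median. The log2 difference was 0.24 (SE 0.24, 95% confidence interval -0.24 to 0.71), with a limma adjusted p of 1.00. The 3 highest SGK1 libraries, at 57.3, 50.2 and 43.7 TMM-scaled CPM, were the shallow ones of 10Lv, 16La and 14Lv, on 18, 15 and 15 reads.

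DDIT4, which encodes an inhibitor of the growth-regulating kinase mTORC1, rested on 99 reads in 46 of 53 libraries and averaged 2.29 CPM. Its TMM-scaled CPM averaged 2.82 ± 1.46 in the rising arm and 1.81 ± 1.35 in the declining arm (SD, n = 18 each), and 14 of 18 rising birds lay above the declining median of 1.43. Without the filter on low values the log2 difference of the arms was 0.50 (SE 0.28), with a limma adjusted p of 0.933. PDK4, whose kinase turns pyruvate dehydrogenase off, had 6 reads in 5 of 53 libraries. In 14La, where PDK4 had 0 of 6446843 reads, a count of 0 allows up to 0.465 CPM, so differences in PDK4 below such limits were not detectable at this depth. Such limits cover counting error only.

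The cytosolic chaperones HSPA8 and HSP90AA1 had small within-group SDs, in a ranking of all tested genes that was not matched for level. The group means of HSP90AA1 ran from 653 TMM-scaled CPM in 16La to 870 in 10Lv, a ratio of 1.33. Of the tested genes, 90.8% had a smaller share of their own variance between groups. That share does not measure the size of group differences. HSPA8 encodes the constitutive HSP70 of the cytosol, and its libraries ran from 328 to 580 TMM-scaled CPM (median 429). Its group means ran from 401 in 16La to 465 in 8L, a ratio of 1.16. All groups overlapped, and its within-group SD of 0.18 log2 units was larger than that of 0.133% of the tested genes, against 0.508% for HSP90AA1. HSPA8 averaged 430.5 ± 49.4 in the rising arm and 443 ± 68.5 in the declining arm (TMM-scaled CPM, SD, n = 18 each), a log2 difference of -0.04 (SE 0.07, 95% confidence interval -0.17 to 0.10, limma adjusted p = 1.00). For 8L minus 16La the log2 change of HSPA8 was 0.21 (SE 0.11, 95% confidence interval -0.02 to 0.44, limma adjusted p = 0.999). In that comparison limma called 0 of 7 members and 0% of all genes, and no member was at an unadjusted p under 0.05, against 4.12% of all genes.

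HSP90AA1 encodes the inducible form of HSP90, a core of the steroid receptor complex. At 10 h its lowest, median and highest values were 722, 895 and 994 TMM-scaled CPM in 10Lv and 508, 639 and 898 in 10La. Most 10Lv birds were high, but the groups overlapped. The log2 difference was 0.36 (SE 0.13, 95% confidence interval 0.10 to 0.62, unadjusted p = 0.00813, limma adjusted p = 0.953). Limma called 0 of 7 members and 0.0121% of all genes at 10 h, and HSP90AA1 was the 1 member at an unadjusted p under 0.05, against 4.77% of all genes. At 12 h the HSP90AA1 difference was -0.01 (SE 0.13) and at 14 h -0.04 (SE 0.13), and the test of its variation with day length gave a limma adjusted p of 0.999. The 10Lv mean of 870 ± 107 TMM-scaled CPM (n = 6) stood above the next group mean, 741 ± 113 in 14La (n = 6), by more than the larger SD. It was the 1 gap of that kind between neighbouring group means among the tested members. The gap was found after the means were ranked, and how many of all genes have such a gap was not counted. From 10Lv to the following step, the log2 change of 12Lv minus 10Lv was -0.27 (SE 0.13, limma adjusted p = 0.998), with 1 of 7 members against 4.57% of all genes at an unadjusted p under 0.05 and 0 of 7 members and 0% of all genes called.

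HSP90AB1, the constitutive HSP90, had group medians of 39.8 TMM-scaled CPM in 14La to 55.9 in 16Lv, over libraries of 13.9 to 80.3. All its groups overlapped. Its log2 difference between the arms was 0.04 (SE 0.19, 95% confidence interval -0.35 to 0.43, limma adjusted p = 1.00), and 6.95% of its variance lay between groups, below the 13.9% median of all tested genes. HSP90AA1 and HSP90AB1 are close paralogs, as are HSPA8 and HSPA2, and how reads of such pairs were split is not given in the sources used here.

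HSPA5, which binds newly made proteins in the endoplasmic reticulum, had group medians of 228 TMM-scaled CPM in 14Lv to 293 in 12Lv. Its groups overlapped throughout. HSPA5 averaged 263 ± 62.7 in the rising arm and 254 ± 42.7 in the declining arm (TMM-scaled CPM, SD, n = 18 each), a log2 difference of 0.04 (SE 0.09, 95% confidence interval -0.15 to 0.22, limma adjusted p = 1.00). By day length its log2 difference was 0.23 (SE 0.16) at 10 h, 0.16 (SE 0.16) at 12 h and -0.28 (SE 0.16) at 14 h. The test of that variation gave a limma adjusted p of 0.999.

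HSPH1 encodes an HSP110 protein that recharges HSP70 by exchanging its nucleotide. Its lowest, median and highest values were 42.9, 70.2 and 84.0 TMM-scaled CPM in 16Lv (n = 5), against 79.5, 111 and 137 in 8L (n = 6). The 16Lv birds were low, with a small overlap of the groups. The log2 change of 16Lv minus 8L was -0.76 (SE 0.23, 95% confidence interval -1.22 to -0.30), with an unadjusted p of 0.00182 and a limma adjusted p of 0.807. In that comparison 2 of 7 members, HSPH1 and FKBP5, against 5.36% of all genes were at an unadjusted p under 0.05, and limma called 0 of 7 members and 0% of all genes.

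Against the same day length before the cycle, HSPH1 had 42.9 to 84.0 TMM-scaled CPM in 16Lv and 63.6 to 151 in 16La. The log2 change of 16Lv minus 16La was -0.66 (SE 0.23, limma adjusted p = 0.621), and HSPH1 was the 1 of 7 members at an unadjusted p under 0.05, against 5.75% of all genes. Limma called 0 of 7 members and 0.0242% of all genes there. For 16Lv minus 14Lv the HSPH1 log2 change was -0.58 (SE 0.23, limma adjusted p = 0.900), with 1 of 7 members against 5.38% of all genes at an unadjusted p under 0.05 and 0 of 7 members and 0.0121% of all genes called. These comparisons share the 16Lv birds. Between the arms HSPH1 averaged 102.8 ± 21.9 TMM-scaled CPM in the rising arm and 101.3 ± 31.8 in the declining arm (SD, n = 18 each). For 12La minus 14La its log2 change was -0.46 (SE 0.22, limma adjusted p = 1.00), and 2 of 7 members, HSPH1 and FKBP5, against 3.47% of all genes were at an unadjusted p under 0.05, with 0 of 7 members and 0.0121% of all genes called. In the remaining comparisons of a step with the step before, no member was at an unadjusted p under 0.05 and limma called 0 of 7 members. The share of all genes at that p was 3.43% for 14La minus 16La, 4.32% for 10La minus 12La, 4.16% for 8L minus 10La, 3.92% for 10Lv minus 8L and 4.15% for 14Lv minus 12Lv. Limma called 0.0121% of all genes for 10La minus 12La and 0% for each of the others.

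The share of variance between the 9 groups was 31.4% for FKBP5 and 31.9% for HSPH1, against a median of 13.9% over all tested genes. For HSP90AA1 it was 23.9%, for HSPA5 16.9% and for HSPA8 15.4%. Birds of 1 group differed most in FKBP5, with a within-group SD of 1.36 log2 units, and 78.3% of the tested genes had a smaller SD. For SGK1 the SD was 0.72, for HSP90AB1 0.58, for HSPH1 0.37, for HSPA5 0.26 and for HSP90AA1 0.21 log2 units. The median SD of all tested genes was 0.81 log2 units.

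Members were also compared between birds after subtracting each group's mean, over 53 libraries and 21 pairs. The relation of HSPA8 and HSPA5 passed in that form (Pearson r = 0.519, permutation p = 0.00038, adjusted p = 0.00798 over the 21 pairs; Spearman rho = 0.502, permutation p = 0.00057, adjusted p = 0.012). Without the 2 libraries farthest from the HSPA8 median, r was 0.449. It did not pass within the place of a library described next, where r was 0.299 (52 libraries, permutation adjusted p = 0.455) and rho 0.239 (adjusted p = 0.735). No other pair passed. The pair with the next smallest p was SGK1 and HSPA8 (r = -0.354, permutation p = 0.023, adjusted p = 0.242; rho = -0.314, permutation p = 0.043, adjusted p = 0.451; r = -0.238 without the 2 farthest libraries). FKBP5 and SGK1, both induced by glucocorticoids in mammals, had r = 0.006 (permutation p = 0.97, adjusted p = 0.97) and rho = -0.010 (permutation p = 0.94, adjusted p = 0.98).

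The place of a library in the order of the title numbers of its group, from 1 to 6, moved with HSPA5. At place 4, 9 of 9 libraries were above their group mean in HSPA5, by 0.28 log2 units on average, while at place 3 it was 1 of 9 (mean -0.27) and at place 5 it was 1 of 8 (mean -0.18). Limma over 52 libraries, without the averaged one, gave HSPA5 an adjusted p of 0.0033 for place and called 1 of 7 members and 4.91% of all genes. At an unadjusted p under 0.05 that test held 2 of 7 members, HSPA5 and HSP90AA1, against 22.1% of all genes. The mean of HSPA8 was also highest at place 4 (0.14) and lowest at place 5 (-0.08), with a limma adjusted p of 0.276. HSPH1 was above its group mean in 9 of 9 libraries at place 6 (mean 0.28, limma adjusted p = 0.254). HSP90AA1 was above its group mean in 0 of 9 libraries at place 3 (mean -0.16) and 8 of 9 at place 6 (mean 0.19). Its limma adjusted p for place was 0.164. Of the 9 shallow libraries, 8 were at place 3. The labels do not say what libraries of 1 place share.

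Depth and cell makeup were set beside that relation too. Over the same libraries the log2 depth had an r of 0.426 with HSPA5 and 0.199 with HSPA8, and summed neuron markers had an r of 0.135 with HSPA5 and 0.300 with HSPA8, given as descriptions. With depth and neuron markers regressed out, the r of HSPA8 and HSPA5 was 0.442 (permutation adjusted p = 0.0693), and without the 6 shallowest libraries it was 0.446 (adjusted p = 0.0735). Without the shallowest library of each group, r was 0.492 over 44 libraries (permutation adjusted p = 0.0315, and 0.0882 for Spearman rho). Without subtracting group means it was 0.392 (permutation adjusted p = 0.0819). The relation thus passed under some of these choices only.

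**Figure D3:**
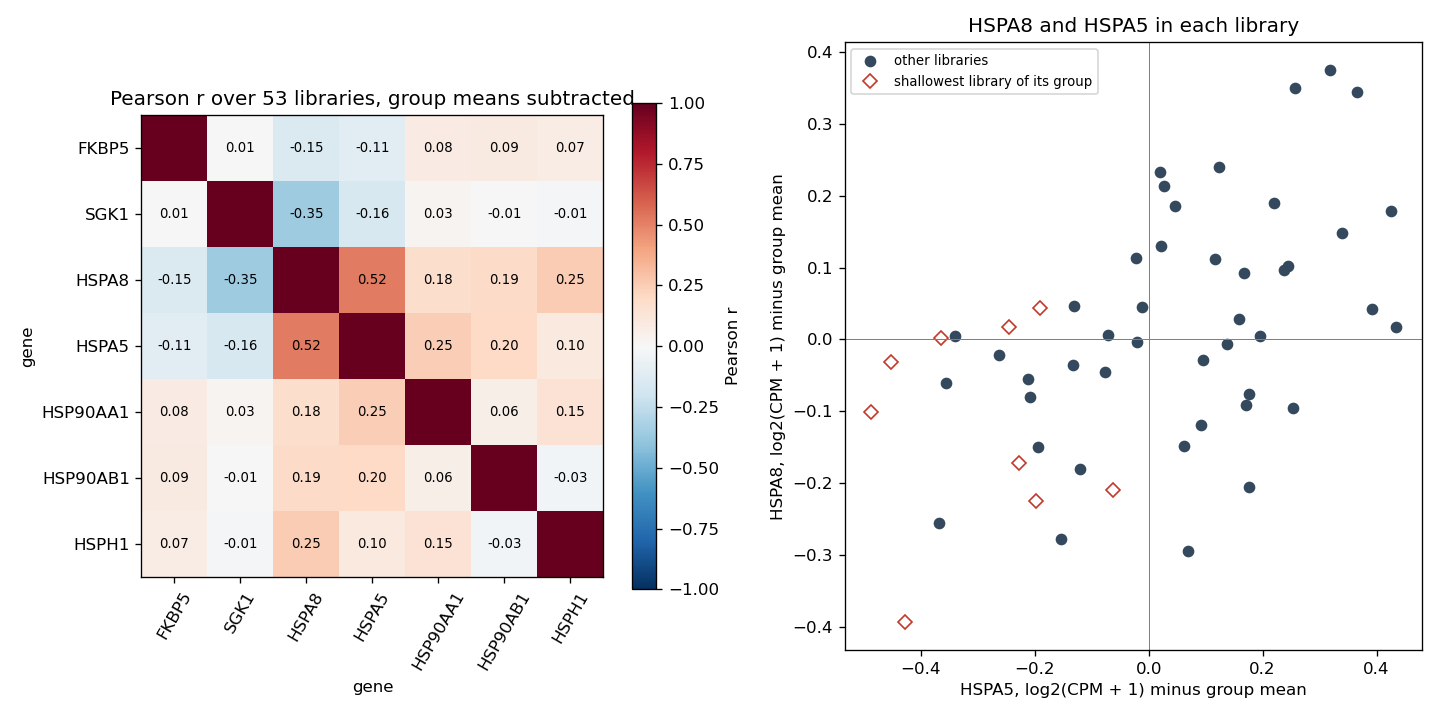
Left, Pearson r between the 7 tested members over 53 libraries with group means subtracted, with the color scale from -1 to 1. Right, HSPA8 against HSPA5 in each library, both as log2(TMM-scaled CPM + 1) minus the group mean, with open diamonds for the shallowest library of each group. HSPA8 and HSPA5 (r = 0.519, and 0.299 within places) are the strongest pair, and all 9 diamonds lie left of 0 for HSPA5.

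The genes whose bird-to-bird pattern was most like a member's, by Pearson r over the 53 libraries with group means subtracted, are given as descriptions, and these libraries share depth and place. For FKBP5 they included RCBTB2 (0.577) and SF3B5 (0.524). For SGK1 they were PPP4R3B, CEP135 and PEAK1 (0.549 to 0.557), and for HSPA8 they were FBXO3, CACNG3 and LGI1 (0.548 to 0.559). HSPA5 was most like FOXO3 (0.664), a transcription factor, GABRB2 (0.594) and DNAJA4 (0.594), an HSP40 partner of HSP70. For HSP90AA1 they were TAF12, FAM32A and TMSB4X (0.581 to 0.606), and for HSP90AB1 they were PPARD, COL23A1 and AHCY (0.523 to 0.558). For HSPH1 they were PCDHA13, PCDHA11 and PCDHA12 (0.577 to 0.579), variable exons of 1 protocadherin cluster, whose reads can be shared.

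HSPA5 was lower in the shallow libraries, of which 8 were at place 3, so depth and place were not separated here. Its lowest, median and highest values were 169, 216 and 239 TMM-scaled CPM in the 9 shallow libraries, against 189, 267 and 391.8 in the other 44, and the shallow library was the lowest of its group in 6 of 9 groups. The log2 difference was -0.36 (SE 0.09, limma adjusted p = 0.00306), in a comparison where 23.9% of all tested genes were called and 1 of 7 members. For HSP90AA1 the difference was -0.19 (SE 0.08, limma adjusted p = 0.0603), for HSPH1 -0.29 (SE 0.13, adjusted p = 0.105) and for HSPA8 -0.14 (SE 0.07, adjusted p = 0.122). For FKBP5 it was -0.07 (SE 0.49, limma adjusted p = 0.930) and for SGK1 0.38 (SE 0.26, adjusted p = 0.280). Every group held 1 shallow library, and without them limma called 0 of 7 members in each comparison. At an unadjusted p under 0.05 were 15 of the member tests, against 5.05% of the tests of all genes.

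**Figure D4:**
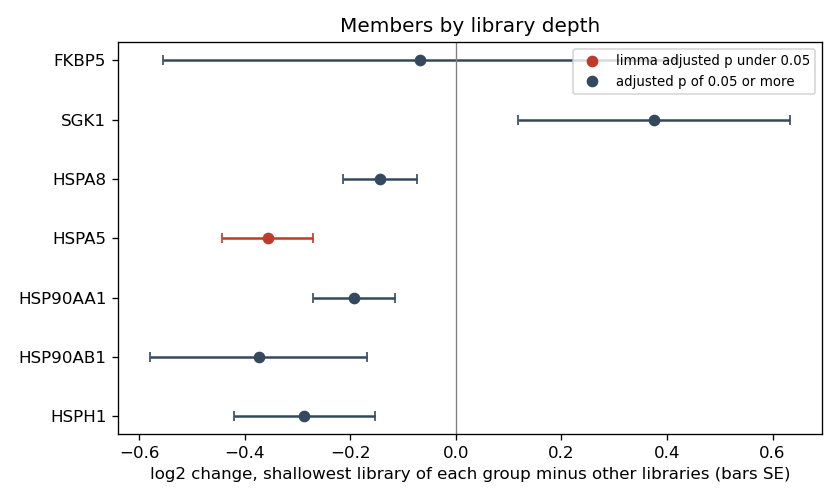
Log2 change (horizontal axis) of the shallowest library of each group minus the other libraries for the 7 tested members (rows), with SE as bars (9 against 44 libraries). Red marks a limma adjusted p under 0.05, which HSPA5 alone of the 7 members reached.

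In the count table, 3 members passed edgeR's filter on low counts, HSP90AA1 with 1662 counts over 54 libraries, HSPA8 with 792 and HSPA5 with 638. Library totals ran from 4834 to 156500 counts (median 39688). Group totals ran from 319076 to 439936 counts in 10La, 12La and 14La. In 10Lv, 12Lv and 14Lv they ran from 167492 to 232855, so the arms differed in depth. Over 18 comparisons edgeR's quasi-likelihood test called 0 of 3 members, against 0% to 0.605% of 826 genes in a comparison, with a lowest adjusted p of 0.959, and DESeq2 called 0. At an unadjusted p under 0.05 there were 0 of 54 member tests, against 4.59% of the tests of all genes and 1.21% to 6.9% in a comparison. For the arms edgeR called 0.121% of the genes. The log2 difference of rising minus declining in that table was 0.15 (SE 0.24) for HSP90AA1, -0.06 (SE 0.34) for HSPA8 and -0.09 (SE 0.43) for HSPA5.

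TSC22D3, a leucine zipper protein through which glucocorticoids damp inflammation in mammals, was measured in the count table. It had counts in 32 of 54 libraries, and its 3 transcripts had 29 to 39 counts each. Its group means ran from 10.3 CPM in 14La, on 6 counts in 2 libraries, to 60.4 in 12La, on 28 counts in 4. These CPM are per 1e6 counts of the library total. Every library of 8L and 16La had counts of it. It averaged 41.5 ± 19.9 CPM in 8L, on 10 counts, and 40.3 ± 24.8 CPM in 16La, on 17 counts (SD, n = 6 each). A count of 0 allows up to 12.1 CPM in 8L and 6.87 in 16La. DDIT4 had 51 counts in 28 libraries and PDK4 19 counts in 15. SGK1 had 112 counts, with 0 of 167492 in 10Lv, which allows up to 17.9 CPM.

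FKBP5 had 205 counts in 29 of 54 libraries of the count table and did not pass that filter. Its 3 transcripts had 67 to 71 counts each, and most of its library sums above 0 were multiples of 3, such as 3, 6, 9 and 12. The same reads thus seem to enter the sum once per transcript, so the 205 counts may stand for fewer reads. How reads were assigned to transcripts is not given in the sources used here. Its group means were 99.5 CPM in 16La, 79.3 in 14La, 28.6 in 12La, 8.11 in 10La and 10.3 in 8L. They were 49.2 in 10Lv, 194 in 12Lv, 101.3 in 14Lv and 105 in 16Lv. Counts of FKBP5 were present in 1 of 6 libraries each in 10La and 8L, where a count of 0 allows up to 9.40 and 12.1 CPM. Without the filter, the edgeR slope on hours of light was 0.36 log2 units per hour (SE 0.10, unadjusted p = 0.000346, adjusted p = 0.0759), and the log2 difference between the arms was 1.06 (SE 0.60, adjusted p = 0.579). Both tests took the summed counts as separate reads, so their p-values may be too small. Counts of other members may be shared between transcripts in the same way. HSP90AB1 had 39 counts in each of 3 transcripts, and HSPA5 had 316 and 322 counts in 2. The 3 transcripts of SGK1 had 32 to 41.6 counts each.

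**Figure D5:**
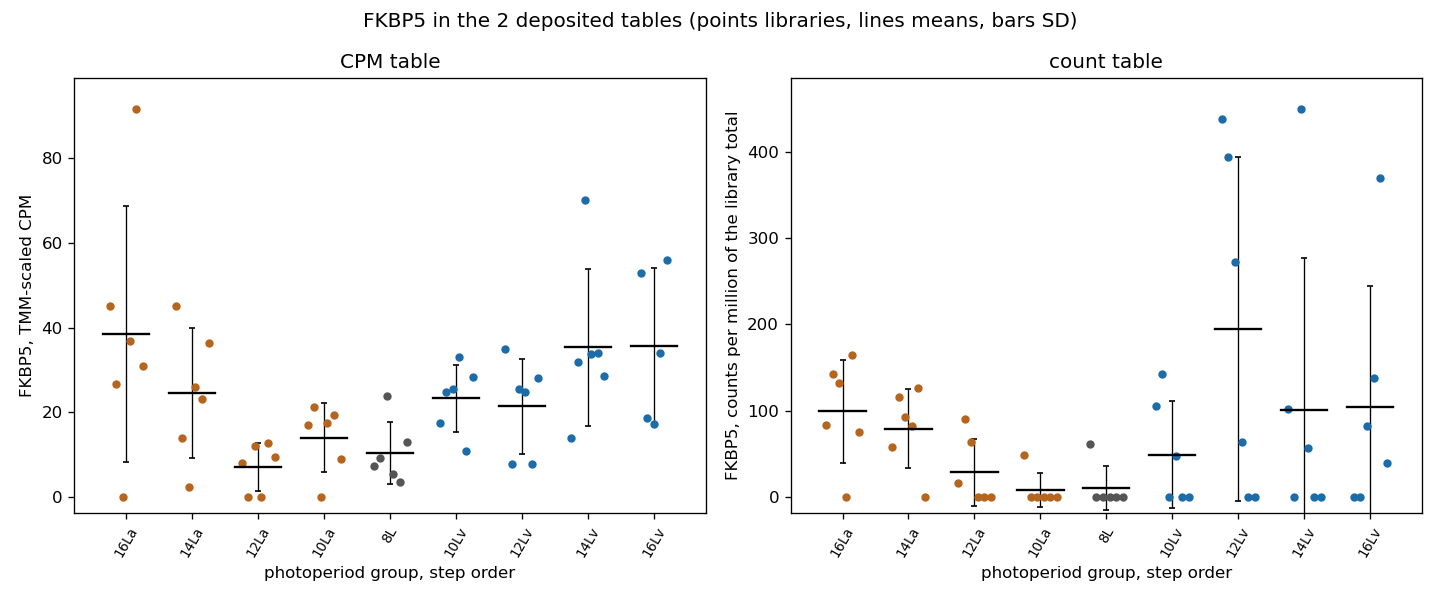
FKBP5 in each library of the 9 groups in step order, as TMM-scaled CPM in the CPM table (left) and as CPM of the library total in the count table (right, summed over 3 transcripts). Points are libraries, lines means and bars SD, and the bars of 14Lv and 16Lv at right run past the lower edge. The 8L means are 10.4 at left and 10.3 at right, where the mean rests on 3 counts in 1 of 6 libraries. It lies under the 12.1 CPM that a count of 0 allows there. The mean at left is lowest in 12La (7.10), and the mean at right is highest in 12Lv (194, against 21.5 at left). The tables hold different transcript profiles, so the panels are not repeats of 1 measurement.

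Other genes of the same pathways were described by list, each tested with limma in the CPM table, and none was called in any comparison listed. Between the arms 4.86% of all genes were at an unadjusted p under 0.05, which is the share to set beside each list's count. Of 35 other chaperones and heat shock factors, 25 were tested. Their median log2 difference between the arms was 0.07, against -0.03 for all genes, and 1 was at an unadjusted p under 0.05. That gene was CRYAB, a small heat shock protein (log2 difference -0.32, SE 0.11, limma adjusted p = 0.912). The abundant members DNAJB6, HSPE1 and STUB1, which are co-chaperones, had differences of -0.05, 0.00 and 0.00. Of 27 endoplasmic reticulum chaperones and unfolded protein response genes, 19 were tested, with 4 at an unadjusted p under 0.05 and a median of 0.09. Among its abundant members, CANX, a lectin chaperone, had 0.24 (SE 0.12, limma adjusted p = 1.00) and HSP90B1, the HSP90 of that compartment, had 0.15 (SE 0.09, adjusted p = 1.00).

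Of 24 other glucocorticoid-induced genes, 7 were tested, with 0 at an unadjusted p under 0.05 between the arms and a median log2 difference of -0.07. GLUL, which encodes glutamine synthetase, had 0.10 (SE 0.08) and KLF15 had -0.16 (SE 0.68). Of 15 glucocorticoid receptors, steroid enzymes and stress peptides, 8 were tested, with 0 at an unadjusted p under 0.05 and a median of -0.33. NR3C2, the mineralocorticoid receptor, had a log2 difference of -0.53 (SE 0.39, limma adjusted p = 1.00), and AVP, which encodes the avian vasotocin precursor, had -0.75 (SE 0.57, adjusted p = 1.00). Of 17 immediate early genes, 3 were tested, with 0 at an unadjusted p under 0.05 and a median of 0.18. FOS had a log2 difference of 0.00 (SE 0.17, limma adjusted p = 1.00).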

How the data were processed

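RNA labelled as mediobasal hypothalamus from 54 birds was analysed from 2 tables made by the authors. One holds deposited CPM per gene, each column summing to 1e6, and its 14 rows with dates for names were not used. Its values came in steps, so reads were recovered: within 0.1 read, 99.7% to 100% of a library's values came out whole. The other table holds the authors' estimated counts (also called expected counts) for 40282 transcripts, as deposited, which were here summed per gene and rounded. Per the submitters' processing notes, the tools were edgeR 3.24.3, Salmon 0.14.2 and minimap2 2.17. What each did, with the strand setting and the build, is not given in the sources used here.

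CPM were scaled by TMM factors and log2(CPM + 1) was fitted with limma 3.58.1 (limma-trend) as 9 group means without covariates. Adding 1 shrinks ratios between low values, but means of logs also weigh libraries at 0 heavily. A log2 change can thus exceed the log2 ratio of the group means, as it did for FKBP5 between the arms. The pair of 16Lv libraries was averaged at a chi-square per degree of freedom of 0.970, against 6.37 for the next pair. Slopes are linear contrasts of the group means on hours of light. Expected counts were tested with edgeR 4.0.16 (quasi-likelihood, TMM, filterByExpr), with DESeq2 1.42.0 as an alternative, all in R 4.3.3. Calls needed an adjusted p (Benjamini-Hochberg, over all genes tested) under 0.05. Fits were tested on simulated data. Correlations used 100000 shuffles within groups. Limma took the place of the count test for the CPM table, whose unit is not counts.

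Members and lists were chosen with earlier results of these data known. All 10 members are named. From each other list the text could name the 4 genes of highest mean CPM and any called, and for each tested member the 3 genes of highest r, of which 1 is not reported here. The labels do not say that birds of a group came from separate pens or litters, so p-values measure the spread between these samples.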

Additional observations from a re-analysis of the deposited data

Results flagged for a closer look

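In 72 combinations of a gene and a group, 8 values stood apart from the rest of their group by more than the 95% limit of Dixon's test, which chance gives in about 1 in 20 groups. FKBP5 was 70.0 TMM-scaled CPM in replicate 3 of 14Lv, where the next bird had 33.9. SGK1 was 50.2 in replicate 2 of 16La, 57.3 in replicate 3 of 10Lv and 43.7 in replicate 3 of 14Lv, each the highest of its group. DDIT4 was 9.90 in replicate 1 of 16Lv, on 3 reads. HSP90AB1 was 19.1 in replicate 3 of 10Lv, the lowest there. HSPH1 was 194 in replicate 6 of 14La, the highest, and 76.7 in replicate 3 of 12Lv, the lowest. Of these 8 values, 7 came from the shallowest library of a group, and the other was HSPH1 in 14La. What part depth has in them was not tested.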

How the results depend on the processing

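Over 15 alternatives and with each of 53 libraries left out in turn, the count of members called in the CPM table was 0 in each comparison that could be fitted, and in the count table it was 0 with DESeq2 and without a filter. The lowest adjusted p was 0.0503. The share of all genes called was not set beside each alternative. It was at most 0.0363% in a comparison of the main limma fit, and at most 0.605% with edgeR in the count table. A count of 0 members thus does not set the members apart from other genes. The alternatives that leave out or model the shallowest library of each group, the regression on depth and neuron markers, and the replicate block by place in title order were chosen after seeing the data. For the correlations, 1 pair passed; 2 passed without TMM scaling, 0 without subtracting group means, 0 without the 6 shallowest libraries, 0 with depth and neuron markers regressed out, 0 with the replicate block by place (r of HSPA8 and HSPA5 0.299), and 1 to 2 with a library left out. Of 8606 member values compared with their alternatives, 8 uncalled values changed sign by more than 1 SE; the cause was not tested. Shallow depth limits DDIT4, on 99 reads, PDK4, on 6 reads, and TSC22D3, whose 3 transcripts had 29 to 39 counts each. Replicate numbers only name birds in accession order. The replicate block by place called 0 members in each comparison. It had 19 member tests at an unadjusted p under 0.05, against 5.3% of the tests of all genes.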
